A study of Mus musculus with 6 samples.

Results

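The annexin genes were followed in mouse aortic vascular smooth muscle cells after knockdown of Sirt6, which encodes an NAD-dependent deacylase. Genes were taken by symbol, Anxa followed by digits only, and 7 of the 7384 genes in the deposited tables matched: Anxa1, Anxa2, Anxa3, Anxa5, Anxa6, Anxa7 and Anxa11. Another 5 of the 12 annexin genes annotated in GENCODE vM21 (Anxa4, Anxa8, Anxa9, Anxa10 and Anxa13) were not analysed here. Cells cultured from mouse aorta were kept for 48 h either under the Sirt6 knockdown labelled siSirt6 or as controls (Control), with 3 libraries in each group. The labels give no reagent or sequence for the knockdown, no strain, age or genotype, do not say what the Control cells received, and do not say whether the 3 libraries came from separate cultures. The p-values therefore measure the spread between these libraries, which may be technical.

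Annexins are cytosolic proteins that bind negatively charged phospholipids, such as phosphatidylserine, when calcium rises. Each has a conserved calcium-binding core of repeats and a variable amino-terminal end that sets its partners. They are known for roles in membrane repair, exocytosis and endocytosis, and cells of the artery wall are known to release them on matrix vesicles that can seed calcification.

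The 7 genes lie on 6 mouse chromosomes, with Anxa7 and Anxa11 both on chromosome 14, and all are annotated as protein coding (GRCm38). Anxa1 spans chromosome 19 from 20373428 to 20390944 on the minus strand, Anxa2 chromosome 9 from 69453620 to 69491795 on the plus strand, and Anxa3 chromosome 5 from 96793339 to 96845966 on the plus strand. Anxa5 lies on chromosome 3 from 36448923 to 36475894 and Anxa6 on chromosome 11 from 54979108 to 55033445, both on the minus strand. Anxa7 occupies positions 20455260 to 20480133 of the minus strand and Anxa11 positions 25842156 to 25886804 of the plus strand. The reference transcript of Anxa6, whose protein has a duplicated core, has 26 exons, and those of the other 6 have 13 to 15. Noncoding genes on the opposite strand overlap Anxa1, Anxa2 and Anxa11. The libraries were made with a stranded kit, but the sources used here do not say whether counting used the strand. Whether reads from the opposite strand were counted at these loci is therefore not known.

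RefSeq start-site windows on GRCm38.p6, from 250 bases before to 50 bases after the start, matched 5 of the 7 annexins. Those of Anxa1 and Anxa11, which were lower in siSirt6, and of Anxa2 and Anxa5, which were higher, are shown because these genes went apart although they belong to one family. Capitals mark every match to 8 searched motifs on either strand: the GC box (GGGCGG), the TATA box (TATAAA), AP-1 (TGACTCA), TEAD (CATTCC), a CRE half-site (TGACG), the CCAAT box (CCAAT), the E-box (CACGTG) and the CArG box, the element bound by serum response factor.
Anxa1 (chr19:20390622-20390921, minus strand): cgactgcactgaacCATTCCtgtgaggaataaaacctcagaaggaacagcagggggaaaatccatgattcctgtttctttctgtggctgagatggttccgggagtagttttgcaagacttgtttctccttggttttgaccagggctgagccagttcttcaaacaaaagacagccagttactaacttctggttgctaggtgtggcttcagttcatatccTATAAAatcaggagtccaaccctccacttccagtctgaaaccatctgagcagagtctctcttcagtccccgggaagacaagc
Anxa11 (chr14:25841905-25842204, plus strand): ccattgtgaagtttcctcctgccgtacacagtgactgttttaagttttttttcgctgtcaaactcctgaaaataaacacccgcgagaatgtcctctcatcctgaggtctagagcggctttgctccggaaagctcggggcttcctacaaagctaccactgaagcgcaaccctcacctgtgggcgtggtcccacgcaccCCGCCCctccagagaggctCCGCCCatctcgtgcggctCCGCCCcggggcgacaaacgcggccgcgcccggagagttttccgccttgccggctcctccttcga
Anxa2 (chr9:69453433-69453732, plus strand): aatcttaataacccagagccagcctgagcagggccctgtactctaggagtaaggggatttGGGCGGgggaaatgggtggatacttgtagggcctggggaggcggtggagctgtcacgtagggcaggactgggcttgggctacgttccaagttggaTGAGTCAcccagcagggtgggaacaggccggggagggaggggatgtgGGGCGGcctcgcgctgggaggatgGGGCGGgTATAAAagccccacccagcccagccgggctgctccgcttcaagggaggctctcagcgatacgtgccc
Anxa5 (chr3:36475838-36476137, minus strand): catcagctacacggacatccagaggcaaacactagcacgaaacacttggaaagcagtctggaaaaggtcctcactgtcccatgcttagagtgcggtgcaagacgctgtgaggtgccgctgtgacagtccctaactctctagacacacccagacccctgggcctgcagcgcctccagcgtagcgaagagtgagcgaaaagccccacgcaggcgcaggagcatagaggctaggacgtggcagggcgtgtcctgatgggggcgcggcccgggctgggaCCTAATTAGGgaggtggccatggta
The window of Anxa1 held a TATA box starting 32 bases before the start site, a TEAD match 236 bases before it, no GC box and 3 CpG dinucleotides. The window of Anxa11 held 3 GC boxes, no TATA box and 25 CpG dinucleotides, so the 2 lower genes had unlike start regions. The window of Anxa2 held 3 GC boxes, a TATA box 17 bases before the start and an AP-1 match 95 bases before it. That of Anxa5 held a CArG box starting 25 bases after the start and no other match. Among all 32851 such windows, 35.7% held a GC box, 13.6% a TATA box, 5.20% an AP-1 match, 14.7% a TEAD match, 20.8% a CRE half-site, 37.4% a CCAAT box, 7.15% an E-box and 1.63% a CArG box, and the median CpG count was 7. Among the 7094 windows of listed genes these shares were, in the same order, 63.2%, 7.8%, 4.3%, 12.6%, 30.3%, 36.3%, 10.3% and 1.55%. The searched AP-1 and CRE letters overlap in their first bases and were counted separately. A match is a description of letters and not a binding site.

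Sirt6 itself had a mean normalised read count (reads scaled by a single factor for each library) of 259.7 ± 9.62 in Control and 55.9 ± 10.1 in siSirt6 (SD, n = 3), and its ranges lay apart. The 7384 listed genes took 14458847 to 15526399 reads per library. Of 10 smooth muscle markers, 7 were listed, with summed normalised read counts of 72270 to 72663 in Control and 113220 to 114588 in siSirt6. Most of that was Acta2, while Tagln and Myh11, 2 defining markers, stood at Control means of only 178.7 and 595.3, and Des, Synpo2 and Myocd were not analysed here. Endothelial markers (8 of 10 listed, all 8 higher) summed to 1000 to 1155 in Control and 1823 to 1970 in siSirt6. After correction for transcript length and GC content 7 of these were higher and none lower. Beside these marker counts, 50.5% of all tested genes were higher and 49.3% lower, and 36.3% each way after that correction. Markers of macrophages and leukocytes (3 of 10 listed, with Ptprc, Adgre1 and Csf1r not analysed here) summed to 1777 to 1822 and 1978 to 2018. All 3 passed as higher, with overlapping ranges for Cd68, but after correction for transcript length and GC content none was higher and 1 was lower. Adventitial fibroblast markers (9 of 10 listed, 4 higher and 5 lower) summed to 92004 to 92948 in Control and 78445 to 79683 in siSirt6. Gsn alone, with means of 72099.9 and 57433, went down by more than that sum did. After the same correction 3 of the 9 fibroblast markers were higher and 4 lower. Of the rest, 3 of 5 adipocyte markers summed to 1605 to 1657 and 1765 to 1793, and 3 of 5 Schwann cell and neuron markers to 1743 to 1811 and 3123 to 3280. No listed marker was at 0 in every library. In bulk RNA a change in the number of cells of a type and a change of RNA per cell cannot be told apart, and the part of these other cell types in the annexin results was not tested.

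Anxa1 and Anxa2 were among the most abundant of the listed transcripts. Per kilobase of the longest protein-coding transcript, the Control level of Anxa1 was 50829 ± 451 normalised reads (SD, n = 3), rank 12 of the listed genes by its mean over all 6 libraries. Anxa2 stood at 29852 ± 53.7 per kilobase (rank 22), Anxa5 at 8730.5 ± 83.8 (rank 129) and Anxa3 at 7128 ± 8.72 (rank 167). The scale then dropped to 2314 ± 23.7 for Anxa6, 1100 ± 36.0 for Anxa7 and 504.3 ± 9.21 for Anxa11 (rank 2280). This order held in siSirt6, where the levels per kilobase were 46525 ± 274 for Anxa1, 36899 ± 70.7 for Anxa2, 11945 ± 107 for Anxa5, 8809 ± 127 for Anxa3, 3217 ± 102 for Anxa6, 1358 ± 21.8 for Anxa7 and 426.7 ± 16.8 for Anxa11. Each pair of neighbours in the order lay further apart than their SDs in both groups.

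After Sirt6 knockdown 5 annexins rose and 2 fell, by limma with adjusted p under 0.05, although the call of Anxa2 did not hold after correction for transcript length and GC content. Anxa6 and Anxa5 rose most, by 1.39-fold and 1.37-fold, Anxa2, Anxa3 and Anxa7 each rose by close to 1.24-fold, and Anxa1 and Anxa11 fell to 0.915 and 0.846 of their Control levels. The ranges of the groups did not overlap for any of the 7. The tables hold almost only differing genes: the same test called 99.8% of all 7179 tested genes, 50.5% higher and 49.3% lower, and 96.8% had ranges that did not overlap. This even split depends on the scaling: with each library scaled to its listed total 2710 genes were higher and 3567 lower, so that 43.2% of the calls were upward. Ranges lay apart upward for 49.0% of genes and downward for 47.8%. That all 7 annexins were called is thus the background of these tables, and the direction and size of each change are what the data add. The changes were small: the median log2 fold change of the 7 annexins was 0.31 against 0.08 over all tested genes, and the median size without sign was 0.31 against 0.37.

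**Figure D1:**
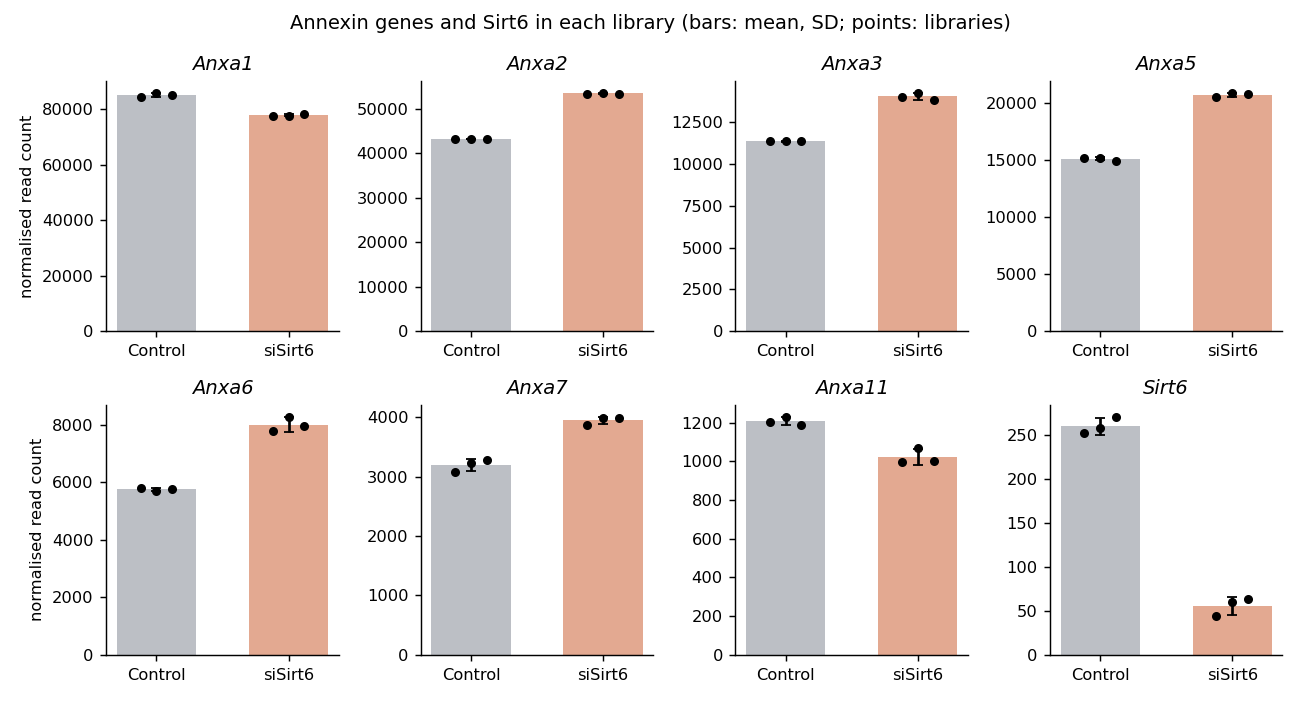
Normalised read counts of the 7 annexin genes and Sirt6 in each of the 3 Control (grey) and 3 siSirt6 (orange) libraries; bars are means, error bars the SD and points single libraries, on axes that start at 0. Anxa1 and Anxa11 lie lower in every siSirt6 library and the other 5 annexins higher, while Sirt6 falls from a mean of 259.7 to 55.9.

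Anxa6, known for its part in membrane repair and in cholesterol handling at the plasma membrane, read 5816.5, 5698.7 and 5765.7 normalised reads in Control (values stand in replicate order throughout) and 7786.0, 8286.2 and 7950.8 in the siSirt6 libraries. The lowest siSirt6 library was far above the highest Control library. Its log2 fold change on the log2(value + 1) scale was 0.47 ± 0.025 (SE; limma, adjusted p = 5.61e-18), a more positive change than in 83.2% of tested genes.

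Anxa5, which binds exposed phosphatidylserine and is used as a stain for dying cells, read 15187, 15205 and 14945 in Control and 20473, 20831 and 20727 in siSirt6. Both groups were tight, with coefficients of variation of 0.959% and 0.892%. Its log2 fold change of 0.45 ± 0.018 (SE; limma, adjusted p = 1.91e-21) was more positive than in 82.0% of tested genes.

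Anxa2, which forms a complex with S100a10 and serves at the cell surface as a docking site for plasminogen and its activator, read 43208, 43267 and 43113 in Control and 53345, 53511 and 53324 in siSirt6. No siSirt6 library came near the Control libraries, and the mean went from 43196 ± 77.8 to 53393 ± 102 (SD, n = 3). This gave a log2 fold change of 0.31 ± 0.013 (SE; limma, adjusted p = 3.39e-20). With length and GC content corrected for, it was 0.02 (adjusted p = 0.134).

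Anxa3, a short-tailed annexin known from studies of vessel growth, read 11384, 11356 and 11368 in Control and 14033, 14262 and 13857 in siSirt6. Anxa7, also called synexin and known for membrane fusion during secretion, read 3077.5, 3220.8 and 3280.7 in Control and 3871.2, 3984.3 and 3977.5 in siSirt6. All siSirt6 libraries were above all Control libraries for both genes. Their log2 fold changes were 0.31 ± 0.020 and 0.31 ± 0.030 (SE; limma, adjusted p = 1.48e-15 and 6.61e-11).

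Anxa1, a glucocorticoid-regulated protein that dampens inflammation through formyl peptide receptors, read 84364, 85872 and 85029 in Control and 77593, 77643 and 78411 in siSirt6. The highest siSirt6 library was below the lowest Control library. The log2 fold change was -0.13 ± 0.012 (SE; limma, adjusted p = 2.38e-11), one of the smaller ones in the tables: 95.1% of tested genes changed by more in either direction.

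Anxa11, whose protein is known to join RNA granules to lysosomes, was the least abundant of the 7. It read 1204, 1231 and 1187 in Control and 995.7, 1068 and 1001 in siSirt6. Its recovered reads ran from 962 to 1264 per library, where counting error alone gives a coefficient of variation of 3.22% at the lowest. Replicate 2 was the highest of the siSirt6 libraries and still lay below all Control libraries. The log2 fold change was -0.24 ± 0.046 (SE; limma, adjusted p = 1.88e-05).

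Changes were also compared between members, in a design that cannot reach p under 0.05. Of the 21 pairs of annexins, 17 had log ratios whose Control and siSirt6 ranges lay apart. Each had an exact 2-sided permutation p of 0.1, the smallest that 3 libraries against 3 allow (adjusted p = 0.124 over the 21 pairs). The same share over pairs of all tested genes was not computed. Ranges lay apart for 96.8% of single tested genes, so the count is not read as particular to annexins. The remaining 4 annexin pairs were Anxa2 with Anxa3, Anxa2 with Anxa7, Anxa3 with Anxa7, and Anxa5 with Anxa6. Within the first 3 of these the log2 changes differed by 0.00041 ± 0.011, 0.00057 ± 0.031 and 0.00017 ± 0.033 (SE), and Anxa5 differed from Anxa6 by -0.022 ± 0.023, which does not show that these genes responded alike. The changes of Anxa1 and Anxa11, both lower, were 0.11 ± 0.037 apart. The widest gap was between Anxa6 and Anxa11, at 0.72 ± 0.024. All these differences were taken with the deposited scaling. After correction for transcript length and GC content the changes were 0.02 for Anxa2, 0.13 for Anxa3 and 0.32 for Anxa7. For Anxa5 and Anxa6 they were 0.26 and 0.36, so the 4 close pairs were less close there.

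The most abundant annexin fell while most others rose, and the make-up of the family shifted more than its sum. Summed over the 7 genes, normalised read counts went from 164927 ± 831 in Control to 178977 ± 781 in siSirt6 (SD, n = 3), or 1.09-fold. The sum over all listed genes also rose 1.09-fold, so the annexins' share of listed reads was 1.17% ± 0.0065 in Control and 1.17% ± 0.0094 in siSirt6, with overlapping ranges (exact permutation p = 1, 2-sided). Divided by transcript length before the share was taken, it was 1.49% ± 0.011 and 1.38% ± 0.016, and the ranges lay apart (exact permutation p = 0.1, the smallest possible). Anxa1 alone went from 0.604% to 0.509% of listed reads, and the other 6 together from 0.567% to 0.661%.

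Per kilobase, Anxa1 made up 50.4%, 50.8% and 50.6% of the annexin total in the Control libraries and 42.6%, 42.4% and 42.8% in siSirt6. Anxa2 took up 29.7% ± 0.12 of it in Control and 33.8% ± 0.10 in siSirt6, Anxa5 8.69% ± 0.079 and 10.9% ± 0.057, and Anxa3 7.10% ± 0.043 and 8.07% ± 0.11 (SD, n = 3). Anxa6, Anxa7 and Anxa11 were minor parts, at most 3.04%, 1.25% and 0.509% in any library. The ratio of Anxa1 to Anxa2 per kilobase went from 1.70 ± 0.014 to 1.26 ± 0.0090, and that of Anxa7 to Anxa11, neighbours in level, from 2.18 ± 0.088 to 3.19 ± 0.10. Neither ratio's ranges overlapped (exact permutation p = 0.1 for each, 2-sided, the smallest possible). Values per kilobase are not corrected for the trend of the changes with length and GC content, and these shares and ratios were not recomputed without it. With that correction the log2 change of Anxa1 was -0.26 and that of Anxa2 0.02.

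**Figure D2:**
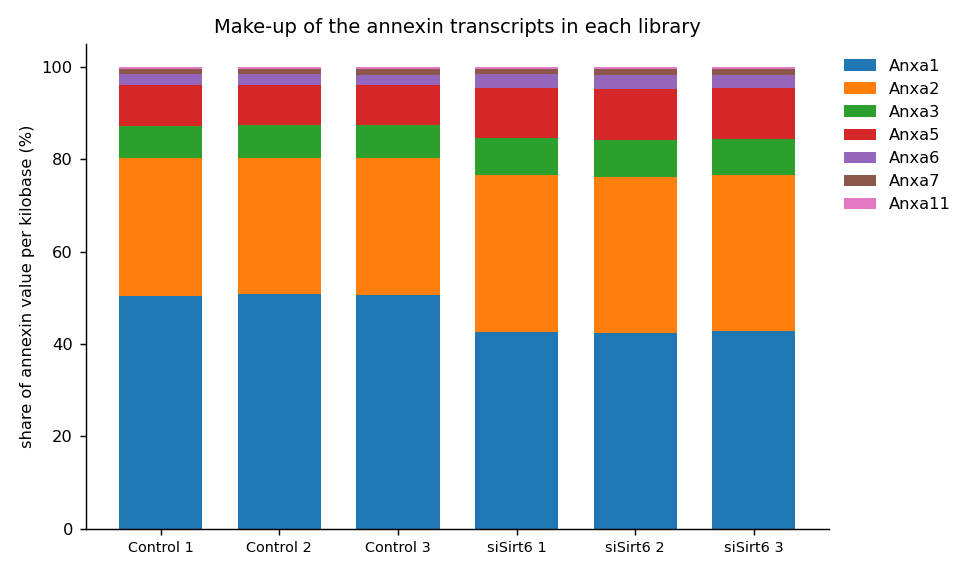
Share of each annexin, in percent of the summed annexin value per kilobase of transcript, in each of the 6 libraries, stacked to 100%. The Anxa1 share is 50.4% to 50.8% in the Control libraries and 42.4% to 42.8% in the siSirt6 libraries, and the shares of Anxa2, Anxa3, Anxa5 and Anxa6 are larger in siSirt6.

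Transcript length moved with the changes across these tables. Tested genes were ranked by length and cut into 5 groups of like size. In the shortest group (67 to 1618 nt), which holds Anxa2 at 1447 nt and Anxa3 at 1595 nt, 84.1% of genes were called higher. The next group (1619 to 2626 nt) holds Anxa1, Anxa5, Anxa6 and Anxa11, and 65.1% of its genes were higher and 34.9% lower. Anxa7, at 2904 nt, lies in the third, where 48.8% were higher and 50.9% lower. With each library corrected for length and GC content, a setting under which 72.6% of genes were called, 36.3% higher and 36.3% lower, 4 annexins remained higher and 2 lower. Anxa2 was the one that did not pass there, with a log2 fold change of 0.02 ± 0.013 (SE; limma, adjusted p = 0.134), and Anxa3 came to 0.13 and Anxa5 to 0.26. Anxa6 at 0.36 and Anxa7 at 0.32 were then the largest rises. The falls of Anxa1 and Anxa11 were larger after this removal, at -0.26 and -0.38. Scaling each library to its listed total moved the median of all tested genes by -0.12, and every annexin with it: the changes of Anxa1 and Anxa11 became -0.25 and -0.36, that of Anxa2 0.19, and all 7 calls held. Whether RNA quality or library preparation moved with length was not tested.

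**Figure D3:**
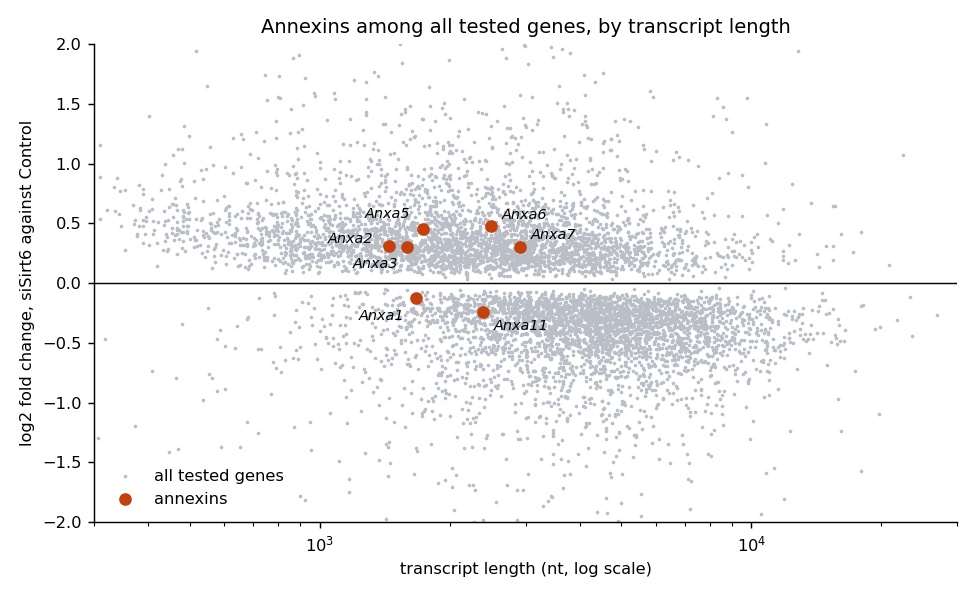
Log2 fold change (siSirt6 against Control) of all tested genes with a known length (grey) against transcript length in nt on a log axis, with the 7 annexins in orange; 90 of the 7130 genes lie outside the axes. Short genes lie mostly above 0 and long genes mostly below it, and Anxa1 and Anxa11 lie below 0 among genes that were mostly higher.

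**Figure D4:**
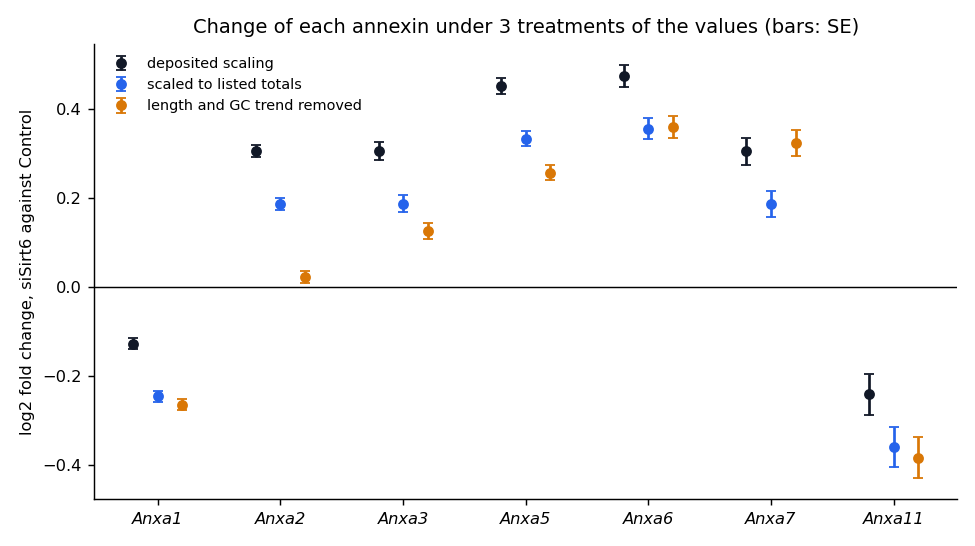
Log2 fold change of each annexin (siSirt6 against Control; error bars are the SE) with the deposited scaling (black), with each library scaled to its listed total (blue) and with the trend on length and GC content removed (orange). Anxa1 and Anxa11 are below 0 in all 3, and Anxa2 falls from 0.31 to 0.02 when the trend is removed.

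Some small S100 proteins and the giant scaffold Ahnak are known as partners of annexins. The list of 13 possible partners also held Ahnak2 and, not analysed here, Gca, Sri and Pdcd6. Of the 13, 10 were tested, 8 rose and 2 fell. Their median log2 fold change was 0.37, beside 50.5% of all genes higher and a median of 0.08. S100a10, the partner of Anxa2, read 21179, 21156 and 20770 in Control and 23311, 23818 and 22725 in siSirt6, a rise of 1.11-fold (log2 0.15 ± 0.018 SE; limma, adjusted p = 9.63e-09). Per kilobase, Anxa2 and S100a10 were nearly equal in Control, at a ratio of 0.972 ± 0.0091, and the ratio was 1.09 ± 0.024 in siSirt6 (exact permutation p = 0.1, 2-sided, the smallest possible). S100a11, the partner of Anxa1, rose 1.31-fold while Anxa1 fell. The 2 that fell were S100b, at 0.444 of Control, which is also a Schwann cell marker, and Ahnak. S100a1, S100a13 and S100a16 rose 1.46-fold, 1.45-fold and 1.43-fold. These S100 transcripts are short. After the length and GC correction S100a10 was lower at -0.29 and S100a11 lower at -0.07, while S100a1 (0.07, adjusted p = 0.122) and S100a13 (0.07, adjusted p = 0.0706) did not pass in limma. That left 2 genes of the list higher and 4 lower. Ahnak, by contrast a very long transcript, fell to 0.881 of Control with the deposited scaling and stood at 0.04 on the log2 scale after the correction.

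At the cell surface the Anxa2 complex is known to bring together plasminogen and its activators. Among 9 tested genes of that system 6 rose and 3 fell, beside 50.5% of all genes higher and 49.3% lower. Their median log2 fold change was 0.31, against 0.08 over all tested genes. After the length and GC correction 5 were higher and 3 lower. The plasminogen-binding enolase Eno1 rose 1.71-fold, from 23367 ± 76.3 to 40007 ± 286 (SD, n = 3). The endocytic receptor Lrp1, which clears protease complexes, rose 1.24-fold. The urokinase gene Plau went from 1121 ± 46.2 to 576.5 ± 35.8, a fall to 0.514 of Control, and the protease inhibitor Serpine2 fell to 0.754. Tissue plasminogen activator Plat, which binds Anxa2, read 894.2 ± 31.1 in Control and 808.0 ± 9.16 in siSirt6 and was the third to fall (log2 -0.15 ± 0.051 SE; limma, adjusted p = 0.00835).

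Anxa1 is known as a target of the glucocorticoid receptor and as a brake on phospholipase A2. In the list of this pathway 4 of 11 tested genes rose and 7 fell (median -0.23), beside 50.5% of all genes higher and 49.3% lower. The glucocorticoid-induced genes Tsc22d3, Fkbp5 and Dusp1 fell to 0.796, 0.820 and 0.850 of Control, next to Anxa1 at 0.915. The cyclooxygenase gene Ptgs1 fell to 0.752. The phospholipase gene Pla2g4a fell to 0.803 and the receptor gene Nr3c1 to 0.866, but Nr3c1 had a log2 fold change of 0.12 with the length and GC trend removed. The other glucocorticoid-regulated gene listed, the clock gene Per1, went the other way and rose 1.13-fold, as did the prostaglandin synthesis genes Ptgs2 (1.49-fold), Ptges2 (1.17-fold) and Ptges3 (1.09-fold). Ptges, also a prostaglandin synthesis gene, fell to 0.841 of Control. The formyl peptide receptors were not analysed here.

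Plasma membrane repair genes, which act where annexins cap a wound, rose in 11 and fell in 4 of the 15 tested members of a list of 21 (median 0.18), beside 50.5% of all genes higher and 49.3% lower. Caveolin Cav1 rose 1.45-fold, the caveolar coat protein Cavin1 1.30-fold and the membrane-bending protein Bin1 1.49-fold. Myof, a ferlin, fell to 0.746, Ahnak to 0.881, Pdcd6ip to 0.895 and Ehd2 to 0.937. After the length and GC correction Myof stood at -0.13 on the log2 scale, and Ahnak, Pdcd6ip and Ehd2 were above 0, at 0.04, 0.12 and 0.05. Capns1, Chmp2a and Chmp4b, which had risen, were then below 0, at -0.06, -0.26 and -0.09. The list still held 11 higher and 4 lower genes. Dysf, a relative of Myof, rose 1.30-fold from 510.0 ± 37.6 to 665.2 ± 9.63 (SD, n = 3). C2-domain proteins are another group that binds phospholipids with calcium, and 11 of 33 were tested. Of these 2 were higher and 9 lower (median -0.32), and the difference from the annexins was not tested. The 2 that rose were Dysf and Esyt1, which tethers the endoplasmic reticulum to the plasma membrane (1.35-fold), and the copines Cpne2 and Cpne3 fell to 0.801 and 0.776. After the length and GC correction 3 of the 11 were higher and 6 lower, and Cpne3 did not pass (-0.04; limma, adjusted p = 0.508).

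**Figure D5:**
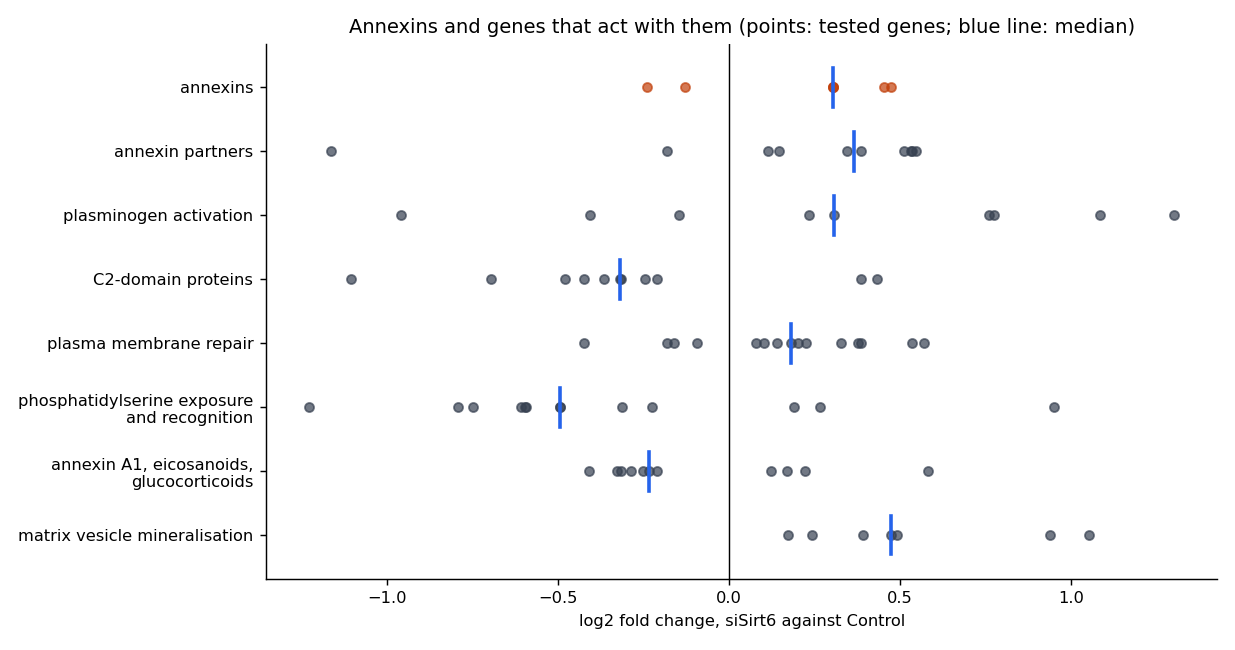
Log2 fold change (siSirt6 against Control) of each tested gene in the annexin family (orange) and in 7 gene lists around it (grey), with the median of each as a blue line. The medians run from -0.50 for phosphatidylserine exposure and recognition to 0.47 for matrix vesicle mineralisation, with the annexins at 0.31; a gene can be in more than 1 list.

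Annexins outside the cell can bind phosphatidylserine once it reaches the outer leaflet. Of 20 genes for its exposure and recognition 13 were tested, 3 rose and 10 fell (median -0.50), beside 50.5% of all genes higher and 49.3% lower. After the length and GC correction 3 were higher and 7 lower. The scramblase Ano6 fell to 0.710 and the bridging ligand Gas6 to 0.805. Mfge8, another bridging protein, rose 1.20-fold, and the receptor kinase Axl 1.93-fold, from 12025 ± 70.0 to 23231 ± 160 (SD, n = 3). Of the Plscr genes, Plscr3 rose 1.14-fold, while Plscr1, Plscr2 and Plscr4 fell to 0.662, 0.655 and 0.576 of Control. Mertk, a receptor kinase of the same family as Axl, fell to 0.595. In matrix vesicle mineralisation all 7 tested of 12 genes rose (median 0.47), among them the sphingomyelinase Smpd3 at 1.92-fold, the phosphate transporter Slc20a1 at 1.39-fold, osteopontin Spp1 at 1.31-fold and the calcification inhibitor Mgp at 1.41-fold. With the trend removed 6 of the 7 were higher and none lower, Mgp came to 0.04, and Ahsg, at -0.02, did not pass. The list holds inhibitors as well as promoters of mineral growth, and Alpl and Runx2 were not analysed here.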

How the data were processed

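RNA sequencing of 6 libraries was compared, 3 siSirt6 against 3 Control. Trimmomatic, HISAT2, Cufflinks, HTSeq and the build mm10 appear in the submitters' processing notes, without versions, roles or order. Per the labels' protocols, libraries were made from mRNA with a stranded kit. In the deposited signal values, each library's reads had been scaled by a single factor: 100% came out whole, within 0.001 reads. The text calls them normalised read counts. Whole library depth is unknown.

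A gene was tested where 3 or more libraries reached a value of 10 (7179 genes, all 7 annexins among them; 205 left out). The test was limma 3.58.1, run in R 4.3.3 on log2(value + 1), 2-sided, with a mean-variance trend and robust moderation, with Benjamini-Hochberg adjustment over all tested genes and a threshold of 0.05. Fold changes on this scale understate the change of low genes; folds given as N-fold are ratios of group means. Single values per library were compared by exact permutation. Because the deposited values were not raw counts, the count tests edgeR 4.0.16 and DESeq2 1.42.0 ran only as alternatives, on the recovered reads of 5 libraries: siSirt6 replicate 1 was left out because an automatic unit check did not take its step of 0.988823. edgeR called 3546 genes higher and 3469 lower. Lengths and GC content came from the longest protein-coding transcript in GENCODE vM21 (7331 of 7384 identifiers found). The length and GC trend was a spline fit with 4 degrees of freedom for each, removed with its intercept from each library. The limma step was checked on simulated data in which most genes were unchanged. Nearly all genes were called here, so that check does not cover this setting.

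Named genes are Sirt6, the annexins, S100a10, the 4 members of each of 7 gene lists with the smallest p, and the 3 genes nearest in profile to the annexins with the largest rise and fall; any further gene was picked with its values in view. One gene that this rule names is not reported here. The members and lists were chosen with earlier results of these data known. The alternatives were other pseudocounts, filters, scalings, tests, adjustments and each library left out in turn.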

Additional observations from a re-analysis of the deposited data

How the results depend on the processing

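Over 16 alternatives, 111 of 112 annexin changes kept their direction and side of the threshold; the exception was Anxa2 at 0.022 with the length and GC trend removed. The annexin median of 0.31 became 0.19 with listed totals, 0.28 with TMM scaling and 0.13 with the trend removed. The annexin share of listed reads differed by -0.00062 percentage points, and by -0.110 when values were divided by transcript length. Without 1 library the annexin median lay between 0.30 and 0.31, Anxa1 between -0.13 and -0.12, Anxa11 between -0.27 and -0.22, and the difference in share between -0.0048 and 0.0044. S100a10 reversed to -0.29 and S100a11 to -0.073 with the trend removed, and the call of S100a10 was lost with listed totals (0.03; limma, adjusted p = 0.13). The calls of S100a1, S100a13, Cpne3 and Nav1 were lost with the trend removed, in which values were left out for genes without a length, such as Ahnak2. With the length and GC trend removed 2590 genes were higher and 2589 lower in place of 3624 and 3542. Same-numbered libraries did not deviate together (correlations -0.019, 0.027 and -0.001), so the numbers give no pairing; under the replicate block 5 annexins were higher and 2 lower, their median stayed at 0.31, Sirt6 stayed at -2.21, and 3629 genes were higher and 3540 lower. Depth limits Anxa11 most, at 962 reads in its lowest library.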

Other observations

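Genes whose profile over the 6 libraries was nearest to that of an annexin were taken from 4301 genes with a mean of at least 500, by the Euclidean distance between log2 values set against their Control mean. Nearest to Anxa6 were the lysosomal protease Lgmn (1.39-fold, distance 0.061), the protease inhibitor Serpinb6a (1.39-fold, 0.063) and the matrix protein Fbln2 (1.37-fold, 0.064). Nearest to Anxa11 were Nav1 (0.835 of Control, distance 0.043), the RNA helicase gene Ddx50 (0.843, 0.047) and the splicing factor gene Srrm1 (0.841, 0.049). With the length and GC trend removed, Nav1 came to -0.02 and did not pass in limma (adjusted p = 0.687).

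The replicate libraries varied by more than counting noise. Over genes with a mean of at least 10 reads, the variance between replicates relative to Poisson counting had a mean of 2.18 in Control and 2.45 in siSirt6. For Anxa2 it was 0.14 and 0.18, and for Anxa3 0.018 in Control and 2.83 in siSirt6. Anxa1 stood at 6.83 in Control and 2.64 in siSirt6, and Anxa6 at 0.626 and 7.98. No pair of replicates agreed within sampling noise over all genes, with a mean chi-square per degree of freedom between 1.95 and 2.58.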
